A study of Mus musculus with 52 samples.

Results

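The regions described are the SmcHD1 ChIP-seq peaks of wild-type mouse embryonic fibroblasts (MEFs) that overlapped no peak of SmcHD1 mutant MEFs by 1 bp or more, called wt-specific peaks below. They numbered 6830 of the 6993 peaks in the wild-type (wt) list, and 97.7% of wt peaks were therefore wt-specific. The mutant (mut) list held 244 peaks, of which 166 overlapped a wt peak. The remaining 163 wt peaks, called shared, touched a mut peak.

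The series comprised ChIP-seq of SmcHD1, H3K27me3, CTCF and Rad21 in clonal female MEFs, and 1 SmcHD1 list was called per genotype after the authors had merged 3 libraries. The wt list came from clone Wt2A1 and the mut list from clone Mut5A6, both of an F2 cross between M. m. domesticus FVB and M. m. castaneus, in which the castaneus X was the inactive one. Mut5A6 was homozygous for the germline MommeD1 point mutation of SmcHD1 (spelled MomeD1 in the labels), a null allele, whereas Wt2A1 carried wild-type SmcHD1 and no further allele or agent was stated for either line. Each genotype was represented by 1 clone, the karyotypes of the lines differed and their autosomes were mosaics of the parental strains, so that effects of genotype and of clone cannot be told apart. Ethylene glycol bis(succinimidyl succinate), a long crosslinker, preceded formaldehyde in the SmcHD1 and Rad21 experiments but not in those for CTCF. The SmcHD1 antibody was made in-house, and on western blots it also recognised other proteins. The peak lists hold no expression values, so that fibroblast identity could not be checked against marker genes.

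SmcHD1 is a large chromosomal protein related to the SMC family, the ATPases of cohesin and condensin, and it is known as a factor that holds genes silent on the inactive X chromosome and at some imprinted and clustered autosomal genes. CTCF is a zinc finger protein that binds insulator sequences and stops the loops extruded by cohesin, and Rad21 is the kleisin subunit of the cohesin ring. A ChIP-seq peak marks sequence that was recovered with an antibody more often than expected, and for a cohesin-like protein it need not mark direct contact with DNA.

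With 1 list per genotype there was no spread between replicates, and peaks are not replicates of a condition. No p-value was computed, and each range in parentheses after a share is its 95% Wilson interval, a measure of counting error alone. The deposited score of a peak is given as its rank within its own list, and scores of different lists depend on their unknown depths. Positions are on mouse build mm10 (GRCm38), counted from 1.

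Examples of the sites that later results return to are shown first: an intron repeat, promoters of imprinted and of other genes, and a tandem repeat on X. All are printed 5′ to 3′ on the plus strand of the RefSeq GRCm38.p6 genome, and none is read from the sequenced cells. The first is the whole peak in an intron of Sos2, a guanine nucleotide exchange factor for Ras, at chr12:69654073-69654306, with runs of 15 bases that occur more than 1 time within the peak in capitals.
Sos2: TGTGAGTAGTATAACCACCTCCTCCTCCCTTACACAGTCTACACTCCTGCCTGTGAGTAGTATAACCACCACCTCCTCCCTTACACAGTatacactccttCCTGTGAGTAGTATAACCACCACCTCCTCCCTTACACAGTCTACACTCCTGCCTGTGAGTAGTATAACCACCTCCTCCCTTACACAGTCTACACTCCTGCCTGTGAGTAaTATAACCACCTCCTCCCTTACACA
The marked runs made up 94.9% of the 234 bases, and the peak held no CpG dinucleotide. The next pair are the central 300 bases of peaks at transcript starts of imprinted genes, with each CpG in capitals, at chr7:128688071-128688370 for Inpp5f, an inositol phosphatase gene with an imprinted internal transcript, and at chr6:30737974-30738273 for Mest, a paternally expressed hydrolase gene.
Inpp5f: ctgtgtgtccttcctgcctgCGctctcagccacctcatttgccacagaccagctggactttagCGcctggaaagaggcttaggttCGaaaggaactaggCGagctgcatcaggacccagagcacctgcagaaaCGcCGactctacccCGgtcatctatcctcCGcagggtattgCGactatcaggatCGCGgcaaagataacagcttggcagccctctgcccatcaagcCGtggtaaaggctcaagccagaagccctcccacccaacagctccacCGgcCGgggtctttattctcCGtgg
Mest: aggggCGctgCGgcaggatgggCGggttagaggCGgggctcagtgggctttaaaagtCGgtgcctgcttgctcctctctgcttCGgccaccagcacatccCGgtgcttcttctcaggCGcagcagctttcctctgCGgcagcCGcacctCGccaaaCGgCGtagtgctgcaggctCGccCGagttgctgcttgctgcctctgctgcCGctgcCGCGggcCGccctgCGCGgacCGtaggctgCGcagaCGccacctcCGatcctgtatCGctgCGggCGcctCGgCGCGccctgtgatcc
The 2 windows held 15 and 31 CpG, with observed-to-expected CpG ratios of 0.600 and 0.869. The next pair are the same for the promoters of Dusp28, a dual-specificity phosphatase gene, at chr1:92907112-92907411, and of Glra1, a glycine receptor subunit gene of spinal cord and brain stem, at chr11:55607715-55608014.
Dusp28: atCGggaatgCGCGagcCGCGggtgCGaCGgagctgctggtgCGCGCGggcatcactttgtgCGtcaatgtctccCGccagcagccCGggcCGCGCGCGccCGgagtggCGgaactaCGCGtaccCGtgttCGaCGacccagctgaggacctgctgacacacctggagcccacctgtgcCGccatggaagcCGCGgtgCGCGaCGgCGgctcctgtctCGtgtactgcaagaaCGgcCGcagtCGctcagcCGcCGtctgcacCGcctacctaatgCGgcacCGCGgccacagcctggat
Glra1: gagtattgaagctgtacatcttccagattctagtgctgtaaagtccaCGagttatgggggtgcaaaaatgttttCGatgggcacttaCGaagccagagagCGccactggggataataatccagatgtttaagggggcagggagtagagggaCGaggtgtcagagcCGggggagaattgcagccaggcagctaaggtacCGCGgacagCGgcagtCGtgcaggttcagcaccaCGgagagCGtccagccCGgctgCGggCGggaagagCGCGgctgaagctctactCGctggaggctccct
These windows held 41 and 18 CpG.
The last pair come from 2 peaks at the Dxz4 tandem repeat on X, annotated as 4933407K13Rik, at chrX:75744588-75744783 and chrX:75758160-75758355, with bases in runs of 20 or more that both windows contain in capitals.
Dxz4, first peak: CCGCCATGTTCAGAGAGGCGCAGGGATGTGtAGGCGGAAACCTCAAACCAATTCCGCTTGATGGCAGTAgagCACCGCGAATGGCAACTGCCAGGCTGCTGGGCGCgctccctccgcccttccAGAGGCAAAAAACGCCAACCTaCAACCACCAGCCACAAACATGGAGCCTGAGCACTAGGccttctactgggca
Dxz4, second peak: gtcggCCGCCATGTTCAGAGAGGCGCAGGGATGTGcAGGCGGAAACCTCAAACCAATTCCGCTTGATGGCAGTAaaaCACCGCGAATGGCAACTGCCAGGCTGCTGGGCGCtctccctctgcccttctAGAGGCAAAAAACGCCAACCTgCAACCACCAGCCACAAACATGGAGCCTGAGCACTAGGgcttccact
Of the 196 bases in each window, 160 were shared in this way, so that reads from one repeat unit can resemble those of another.

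Wt-specific peaks were mostly narrow and of modest rank. Their median score was 44 (quartiles 28 and 70, highest 12078) and their median width 313 bp (quartiles 235 and 467 bp, widest 6504 bp), and together they covered 2882 kb. The shared wt peaks had a median score of 200 and a median width of 530 bp. The share that was wt-specific differed by rank, with 53 of the 100 wt peaks of highest score and 1747 of the 1752 in the lowest quartile of score. Just inside the rule, a peak of score 31 at D230017M19Rik on chromosome 1 (72256244 to 72256645) lay 15 bp from a mut peak, and a peak of score 53 near Rny3, a Y RNA gene, lay 101 bp from one. Just outside it, a shared peak at B930036N10Rik (score 84) overlapped a mut peak by 37 bp. Of the 6830 wt-specific peaks, 49 lay within 1 kb of a mut peak and 198 within 10 kb.

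**Figure D1:**
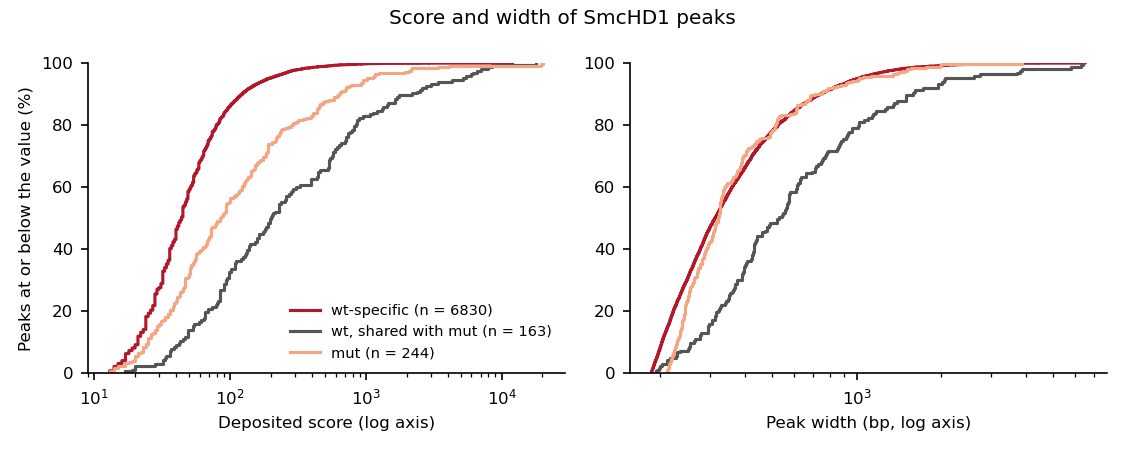
Cumulative share of peaks (%) against the deposited score (left, log axis) and the peak width in bp (right, log axis) for wt-specific, shared wt and mut SmcHD1 peaks. The wt-specific curve lies to the left for score, with a median of 44 against 200 for shared peaks, and the wt-specific and mut widths nearly coincide, with medians of 313 and 322 bp.

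Chromosome X held 1791 of the wt-specific peaks, the autosomes 4994 and Y 45. To describe where they lie, each peak was classed by its midpoint as promoter (within 1 kb of any GENCODE M21 transcript start), otherwise exon, otherwise intron, otherwise intergenic. On autosomes 27.6% of wt-specific peaks were at promoters (95% interval 26.4 to 28.8, 1377 peaks), although promoters make up 6.28% of autosomal sequence, a ratio of 4.39. The shares of introns and intergenic sequence were 27.5% (26.3 to 28.8) and 40.4% (39.0 to 41.7), each below the share of that class in the sequence (40.3% and 50.1%). On X 15.1% of peaks were at promoters (13.5 to 16.8, 270 peaks) against 3.93% of sequence, a ratio of 3.84, and 69.4% were intergenic (67.2 to 71.5, 1243 peaks) against 66.98% of sequence. Introns were the class with fewest peaks for their length on X, at 13.5% (12.0 to 15.1) against 27.3% of sequence. Promoters were a larger share of autosomal wt-specific peaks than of CTCF peaks (17.2%, interval 16.9 to 17.5) or Rad21 peaks (23.0%, 22.7 to 23.4) of the same cells. The wt-specific share varied between single autosomes, however, from 13.9% to 56.5%. On X the promoter share of Rad21 peaks was higher than that of wt-specific peaks, at 20.2% (18.4 to 22.1). In the mut list 41.8% of peaks were at promoters (35.8 to 48.1, 102 of 244).

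**Figure D2:**
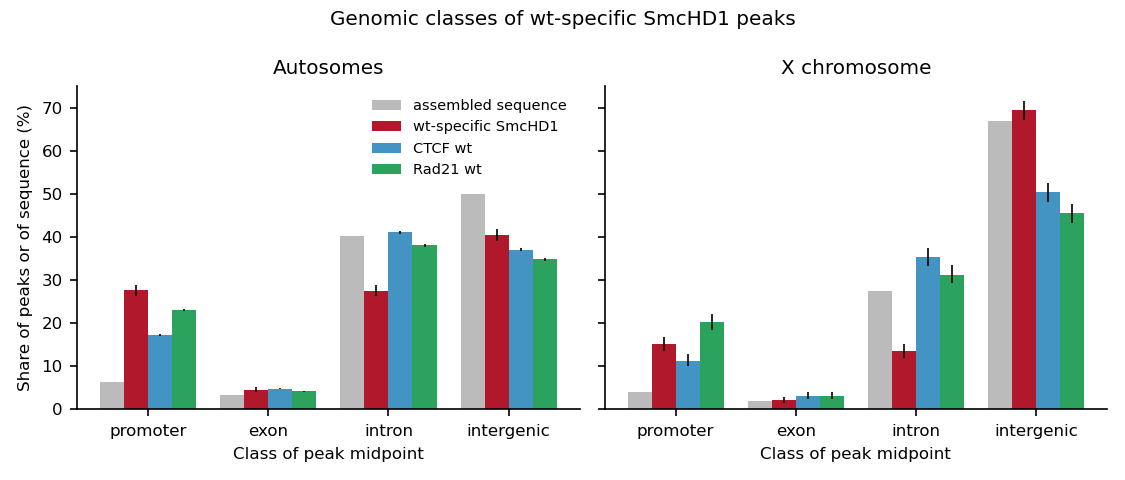
Share (%) of wt-specific SmcHD1, CTCF wt and Rad21 wt peaks, and of assembled sequence, in 4 genomic classes, for autosomes (left) and X (right); bars on the peak shares are 95% Wilson intervals. Promoters hold 27.6% of autosomal wt-specific peaks against 6.28% of sequence, and intergenic sequence holds 69.4% of those on X.

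Of the autosomal promoter peaks, 75.8% (73.5 to 78.0) lay within 1 kb of the start of a protein-coding gene, as did 76.7% (71.3 to 81.3) of those on X. On X 17.0% (13.02 to 22.0) were at the start of a pseudogene and of no protein-coding gene, against 8.35% (7.00 to 9.93) on autosomes. Of the promoter peaks, 808 lay downstream and 569 upstream of the nearest start on autosomes, and 160 and 110 on X. The counts were 9465 downstream and 5682 upstream for Rad21 wt peaks on autosomes, and 4983 and 5022 for CTCF wt peaks. The median distance to the nearest transcript start was 5.78 kb on autosomes and 11.04 kb on X. For 39.9% of the peaks on X (37.6 to 42.2) the nearest gene of any type was a pseudogene, against 19.02% (17.96 to 20.1) on autosomes.

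Score and width differed little between classes. On autosomes the median score was 45 at promoters and in intergenic sequence, 40 in introns and 49 in exons, with interquartile ranges that overlap. Peaks of 1 kb or wider numbered 352, of which 103 (29.3%) were at promoters. Promoter peaks differed in base composition, with a median GC content of 64.4% and a median CpG ratio of 0.758 on autosomes, against 48.4% and 0.210 for intergenic peaks. Among all annotated protein-coding genes, 5.42% had a wt-specific peak within 1 kb of a start, with 4.80% on autosomes and 20.0% on X.

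Many wt-specific peaks lay in sequence with further copies in the genome. A peak was called repeated if over 50% of its 50-base words occur more than 1 time on chromosomes 1 to 19, X and Y, and single-copy otherwise. By this measure 43.2% of wt-specific peaks were repeated (42.0 to 44.4, 2951 peaks), with 34.8% on autosomes (33.5 to 36.2) and 65.9% on X (63.7 to 68.0). Among 300 bp windows placed every 50 kb, 9.16% of those on autosomes and 22.5% of those on X were repeated. The further copies lay mostly on the same chromosome, for 94.2% of repeated autosomal peaks and 96.6% of those on X, and the median number of copies was 4 and 6. The 2 kinds had different classes. On X 80.7% of repeated peaks were intergenic (78.3 to 82.8) and 6.19% at promoters (4.95 to 7.71), whereas of the 611 single-copy peaks 47.6% were intergenic (43.7 to 51.6) and 32.2% at promoters (28.7 to 36.0). The single-copy promoter share on X was thus close to the 33.7% on autosomes (32.1 to 35.3). Promoters make up less of the sequence of X, so that the ratio to sequence was higher there, at 8.21 against 5.36. A read from repeated sequence can be placed on any of its copies, and how such reads were handled was not stated, so that the place and number of repeated peaks are uncertain.

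By chromosome, the density of single-copy wt-specific peaks was 9.62 per Mb on chromosome 5 and 3.74 on X, and 0.851 ± 0.570 (mean ± SD) on the 18 other autosomes, from 0.185 on chromosome 3 to 2.18 on chromosome 11. With repeated peaks included, chromosome 5 had 11.2 per Mb and X 10.95. The repeated share ran from 8.48% on chromosome 11 to 71.9% on chromosome 1. On chromosome 5, where the peaks were of lower rank (median score 38 against 48 on the 18 other autosomes), the promoter share was 19.4% (17.6 to 21.4) against 31.6% (30.1 to 33.2). Along X, single-copy peaks were more numerous where protein-coding genes are more numerous, with a Spearman's rho of 0.72 over 169 windows of 1 Mb, against 0.29 for repeated peaks. With promoter peaks left out the single-copy rho was 0.63. These correlations are descriptions, since neighbouring windows share sequence and all windows share the same libraries.

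**Figure D3:**
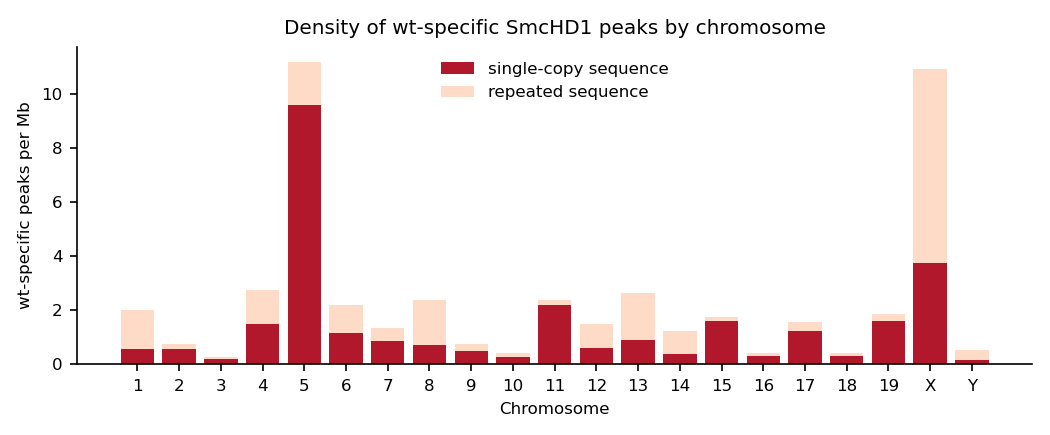
Wt-specific SmcHD1 peaks per Mb of assembled sequence on each chromosome, split into single-copy and repeated sequence. Chromosome 5 stands at 11.2 per Mb, mostly single-copy, and X at 10.95, mostly repeated, whereas the next chromosome, 4, has 2.74.

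CTCF and Rad21 shared some of these sites. Of all wt-specific peaks, 25.5% overlapped a Rad21 wt peak and 20.1% a CTCF wt peak. The shares were higher in the 163 shared wt peaks, at 41.7% for Rad21 (34.4 to 49.4) and 36.2% for CTCF (29.2 to 43.8). The overlap was thus not particular to wt-specific peaks, and the part of rank and class in this difference was not tested. Among wt-specific peaks the share followed class, although no share over all annotated promoters was available for comparison. On autosomes 60.5% of wt-specific promoter peaks overlapped a Rad21 wt peak (57.9 to 63.0) and 34.1% a CTCF wt peak (31.6 to 36.6). Among autosomal intergenic peaks the shares were 19.3% (17.6 to 21.1) for Rad21 and 20.0% (18.4 to 21.8) for CTCF. On X 44.1% of promoter peaks met Rad21 (38.3 to 50.0), but only 4.91% of intergenic peaks did (3.84 to 6.25), and 93.3% of X intergenic peaks (91.8 to 94.6) met neither protein. Repetition moved these shares, since 15.1% of single-copy intergenic peaks on X (11.5 to 19.7) and 70.3% of single-copy promoter peaks on autosomes (67.5 to 72.9) met Rad21. Of autosomal promoter peaks, 30.2% (27.8 to 32.7) met Rad21 without CTCF. The CTCF share on autosomes rose with score, from 19.1% (17.0 to 21.4) in the lowest quartile to 29.2% (26.7 to 31.8) in the highest, whereas the Rad21 share did not keep rising (26.7%, 32.2%, 32.9% and 29.8% from the lowest to the highest quartile). Autosomal peaks in clusters met Rad21 in 13.4% of cases (12.1 to 14.9), against 46.1% outside clusters (44.2 to 48.0). Repeated autosomal peaks met it in 8.91% of cases and single-copy ones in 41.8%, and the part of repetition in the cluster contrast was not tested. Because Rad21 and SmcHD1 chromatin shared the longer crosslinker and CTCF chromatin did not, the part of fixation in these shares cannot be told apart.

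The CTCF and Rad21 peaks at wt-specific SmcHD1 sites were mostly still listed in mut cells. On autosomes 89.5% of the CTCF peaks that met a wt-specific peak overlapped a CTCF peak of mut (87.5 to 91.2, 963 of 1076), against 80.2% of the other CTCF peaks (79.9 to 80.6). For Rad21 the shares were 87.3% (85.5 to 89.0, 1236 of 1415) and 71.4% (71.0 to 71.7). On X they were 88.4% (82.0 to 92.7, 122 of 138) against 75.3% (73.3 to 77.3) for CTCF and 81.6% (75.5 to 86.4, 155 of 190) against 63.4% (61.1 to 65.7) for Rad21. At X promoters the CTCF shares were 83.3% (40 of 48) and 82.9% (141 of 170). The CTCF peaks at SmcHD1 sites were of higher rank in their own list, with a median percentile of 65.6 on autosomes against 49.8 elsewhere and of 63.9 on X against 50.9. For Rad21 the percentiles were 63.8 and 49.0 on autosomes. On X they were 45.0 and 34.8 at promoters and 72.7 and 63.2 in intergenic sequence, although 54.3 and 57.7 over all classes. The part of rank in the differences was not tested.

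The letters CNAGNGGGC, taken from the core of the CTCF motif (C, any base, AG, any base, GGGC, searched on both strands), occurred in the central 300 bases of 5.53% of wt-specific peaks (5.02 to 6.10). The share was 1.76% in windows of the same length placed every 50 kb, 9.21% in CTCF wt peaks and 8.20% in mut peaks (5.37 to 12.3, 20 of 244). Autosomal wt-specific peaks that met CTCF held the letters in 11.1% of cases (9.48 to 13.03) and those that did not in 4.14% (3.55 to 4.82). At promoters 8.71% of autosomal wt-specific windows held them (7.34 to 10.3), against 7.03% of 32851 RefSeq promoters of the same length. In promoter peaks of all chromosomes the share was 8.82% in mut (4.71 to 15.9, 9 of 102) and 16.2% in shared wt peaks (9.28 to 26.7, 11 of 68).

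Many wt-specific peaks stood close together. Chaining peaks with gaps of at most 10 kb placed 52.0% of them (50.9 to 53.2, 3555 peaks) in 477 clusters of at least 3 peaks, while 2369 peaks stood alone. On X 62.5% were in clusters (60.2 to 64.7) and on autosomes 48.1% (46.8 to 49.5). This order turned when only single-copy peaks were chained, with 27.7% in clusters on X (169 of 611) and 37.4% on autosomes (1216 of 3255). The turn depended on chromosome 5, where 54.4% of single-copy peaks were in clusters (774 of 1423). On the other autosomes the share was 24.1% (442 of 1832), below that of X. Of the mut peaks, 14.8% were in such clusters, as were 41.0% of the CTCF and 46.0% of the Rad21 wt peaks, from lists of 60204 and 67655 peaks that are far denser. Clusters of 10 or more peaks numbered 77 and held 1736 peaks. Clustered peaks were wider (median 359 bp) than lone peaks (273 bp) and had a lower GC content (46.6% against 54.7%). Over all chromosomes 36.0% of single-copy peaks were in such clusters.

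The largest cluster lay on chromosome 1 from 85447324 to 85652275 and held 108 peaks and no mut peak over Sp140, Sp110, Sp100 and G530012D18Rik. The Sp100 family encodes nuclear body proteins induced by interferon. Of its 108 peaks, 93 were repeated, and they fell in introns (44), intergenic sequence (37), promoters (19) and exons (8). Clusters of 78, 45, 31 and 28 peaks preceded it on the chromosome, all over or beside the gene model C130026I21Rik, which with 126 wt-specific peaks held more than any other protein-coding gene. One further member of this region, A530032D15Rik, was inside the cluster of 45, together with Gm10553.

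The cluster with the second most peaks, 93, spanned 145 kb of chromosome 6 from 114492959 to 114637466, between Hrh1, a histamine receptor gene, and Atg7, an autophagy gene. It contained no annotated gene of any type, all of its peaks were repeated, and its peaks were of high rank (median score 261, highest 1262). It also held 1 mut peak, and 10 of its wt-specific peaks met CTCF and 12 met Rad21.

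On chromosome 8, from 123537381 to 123624375, 42 peaks covered the tandem array of 5S ribosomal RNA genes, which RNA polymerase III transcribes. The array lies inside Gm20388, a gene model of 4435 kb that holds 52 wt-specific peaks in all. All 42 peaks were repeated, their median score of 446 was above that of the other 9 clusters with most peaks, and 41 were classed as promoters. Of the 48 5S genes annotated on chromosome 8, 36 were overlapped by a wt-specific peak, against 0 of the 133 annotated elsewhere, and 1 5S gene was overlapped by a mut peak. The cluster itself held 2 mut peaks. Transfer RNA genes, another large class transcribed by this polymerase, were counted after the 5S result was seen. Of 403 tRNA genes in the RefSeq annotation, 43 had a wt-specific peak within 1 kb (10.7%, interval 8.02 to 14.1) and 30 a mut peak, and 0.307% of wt-specific peaks lay within 1 kb of one, against 5.74% of mut peaks.

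The remaining clusters among the 10 with most peaks were at multicopy genes of X and chromosome 5. On X 58 peaks lay at Luzp4, a leucine zipper gene, from 148831355 to 148961368, and 49 at Spin2f and beside Btbd35f29, members of the spindlin and BTB domain families, from 31136076 to 31257016. On chromosome 5 clusters of 48, 46 and 39 peaks lay at Speer4c, Speer4d and Speer4e, testis genes of unknown function, and the models 4930572O03Rik, Gm21083, Gm21149, Gm21190, Gm10354 and Gm9758. None of these 5 clusters held a mut peak, and between 34 and 47 peaks of each were repeated. In the chromosome 5 clusters 15, 21 and 11 peaks met CTCF, whereas in the 2 X clusters 2 and 1 did.

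**Figure D4:**
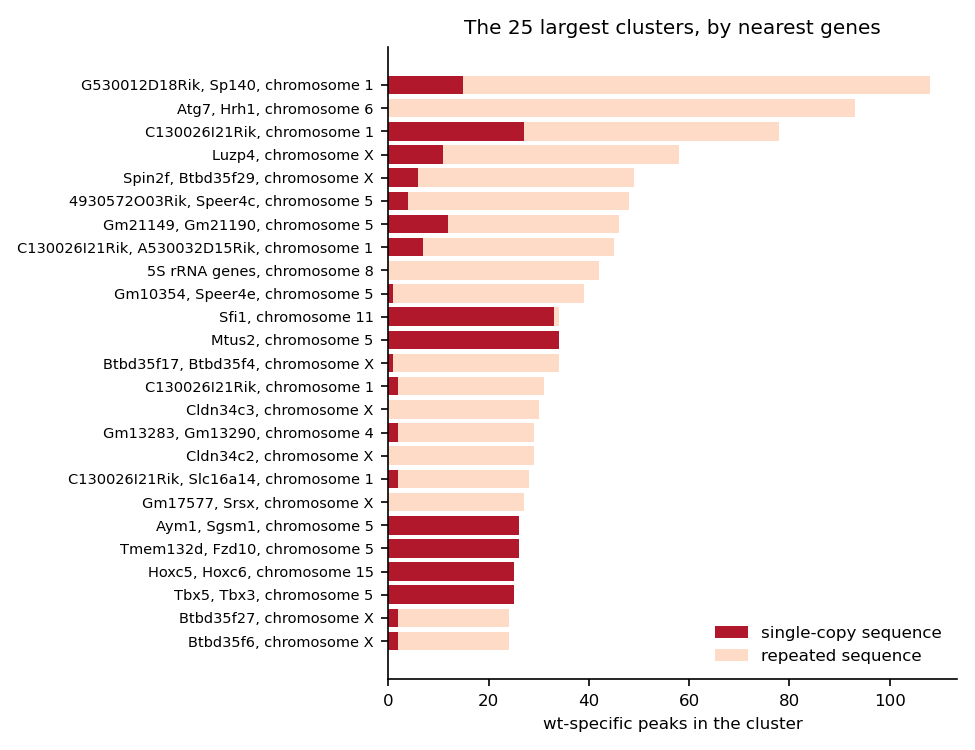
Number of wt-specific SmcHD1 peaks in each of the 25 clusters with most peaks, labelled by the nearest protein-coding genes (5S rRNA genes for the array on chromosome 8) and split into single-copy and repeated sequence. The cluster at Sp140 on chromosome 1 has 108 peaks, and the clusters at Mtus2, Aym1, Fzd10, Hoxc5 and Tbx5 have no repeated peak.

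Some large clusters were single-copy, and they are named here after their values were seen. On chromosome 5, 34 peaks lay in Mtus2, a microtubule-associated gene that held 82 wt-specific peaks in all, none of them repeated. On chromosome 11, 34 peaks lay at Sfi1, a centrosomal gene, of which 1 was repeated. The cluster at Hoxc on chromosome 15, from 102965651 to 103015986, held 25 peaks over Hoxc10, Hoxc9, Hoxc8, Hoxc6 and Hoxc5, transcription factor genes that set position along the body axis. Of these, 12 were at promoters and 11 in introns, 4 met CTCF and 4 Rad21, and the highest score, 258, was in a peak of 1594 bp between Hoxc9 and Hoxc8. A further 25 single-copy peaks, none of them in a gene, lay between Tbx5 and Tbx3, transcription factor genes of heart and limb, with 16 more in the next cluster. Among clusters of mostly repeated peaks, the one at the type I interferon genes on chromosome 4, around Ifnz, had 29 peaks, of which 27 were repeated, 28 met CTCF, 19 met Rad21 and 27 were at promoters. The clusters nearest Ezh2 and Pdia4 on chromosome 6 also met CTCF at most peaks, with 13 of 15 and 10 of 11.

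The 20 wt-specific peaks of highest score were led by the first 100 kb of assembled sequence on chromosome 9, next to the centromere, which held 8 of them. They lay at Gm10715 (score 12078), Gm10722 (9874), Gm10717 (5343, 2895 and 2479), Gm10719 (1000) and Gm11168 (998 and 981). That stretch also held 10 mut peaks and 9 shared wt peaks, and the 8 members lay 287 to 2516 bp from the nearest mut peak. Of the 20, 13 were repeated. The remainder included the Sos2 peak (2684), a peak at the 3′ end of Mid1 on X (2404, chrX 170004485 to 170006120), a peak near Btbd35f29 (1585), peaks between Hrh1 and Atg7 (1262, 1051 and 1014) and the widest of the 5S peaks (1055). The last 5 were single-copy, as was the Sos2 peak by the definition above, and were the promoters of Dusp28 (1851), Inpp5f (1230), Iqsec3 (1104) and Glra1 (1030), and a site 15.6 kb from Ccnc, a cyclin gene (1244). Iqsec3 encodes a guanine nucleotide exchange factor of inhibitory synapses. Of these 5, the Inpp5f peak met Rad21 and none met CTCF.

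Wt-specific peaks were then assigned to genes. Of 21938 protein-coding genes, 7.42% held at least 1 wt-specific peak in the body or within 1 kb upstream, with 6.60% on autosomes and 26.6% on X, whereas 0.570% held a mut peak (0.591% on autosomes and 0.105% on X). With single-copy peaks alone the shares were 6.31% in all, 5.68% on autosomes and 21.3% on X. Over annotated genes of any type they were 4.29% in all, 3.95% on autosomes and 13.5% on X. Among the 15 genes with most peaks were, beside C130026I21Rik (126), Mtus2 (82), Gm20388 (52), Luzp4 (37), Sp140 (28) and Sfi1 (28), the chromosome 5 genes Sez6l (28), Myo18b (27), Fry (26), Rimbp2 (24), Rasgef1b (22) and Tmem132d (22), as well as Hoxc5 (24) and Asic2 (21). Sez6l encodes a seizure-related membrane protein, Rimbp2 a protein that binds presynaptic calcium channels, and Asic2 an acid-sensing ion channel. They are described as examples, and no function common to the listed genes was tested. Long gene models collect more peaks by length, and the Hoxc5 model of 50.0 kb spans its neighbours. None of these genes apart from C130026I21Rik and Gm20388 held a mut peak.

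Among imprinted genes, which are expressed from 1 parental allele, 10 of 25 listed genes outside the large clusters held a wt-specific peak (40.0%). The share was 7.42% of all protein-coding genes and 4.29% of annotated genes of any type. In 9 of the 10 listed genes a peak lay within 1 kb of a start of the gene itself, and the Gnas peak lay at the start of another annotated gene. The peaks were at Inpp5f (score 1230), Peg3 and Usp29 (1 peak within 1 kb of both, 313), Peg10 and Sgce (1 peak within 1 kb of both, 206), Gnas (164), Grb10 (144), Mest (142), Zrsr1 (72) and Peg13 (36). The Peg3 peak, from 6728890 to 6729954 on chromosome 7, met both CTCF and Rad21, as did those at Grb10 and Peg13. The Inpp5f and Peg10 peaks met Rad21 alone, and the Mest, Zrsr1 and Gnas peaks met neither. A further 3 genes, Nap1l5, Nnat and Plagl1, had promoter peaks in wt of scores 1138, 178 and 542 that were also present in mut and so fall outside the rule. Mut peaks were thus held by 3 of the 25 listed genes, against 0.570% of all protein-coding genes, so that an excess was also present in the mut list. A peak inside H13, an imprinted gene that was not on the list and is named after its value was seen, had a score of 346. It lay within 1 kb of an annotated transcript start, which need not be that of H13 itself. Because some of these genes share a peak, the 10 genes rest on 10 distinct peaks, of which Peg3 and Usp29 contributed 1 further peak each, of scores 45 and 24.
In the Igf2r cluster, 1 peak of score 69 lay at the start of Airn, a paternally expressed antisense RNA gene, inside Igf2r. In the Snrpn cluster 1 of 7 listed genes, Ube3a, held a peak (score 24). The long noncoding gene Snhg14 of the same locus, which was not on the list and is named after its values were seen, held 16 peaks, all repeated, and a cluster of 3 single-copy peaks of scores up to 184 had Snrpn as its nearest protein-coding gene. In the Kcnq1 cluster 0 of 10 genes held a peak. The imprinted promoter windows printed above are, like Dusp28 and Glra1, CpG-containing and single-copy. The central 300 bases of the Peg3 peak, at chr7:6729272-6729571 with each CpG in capitals, are shown for comparison with them.
Peg3: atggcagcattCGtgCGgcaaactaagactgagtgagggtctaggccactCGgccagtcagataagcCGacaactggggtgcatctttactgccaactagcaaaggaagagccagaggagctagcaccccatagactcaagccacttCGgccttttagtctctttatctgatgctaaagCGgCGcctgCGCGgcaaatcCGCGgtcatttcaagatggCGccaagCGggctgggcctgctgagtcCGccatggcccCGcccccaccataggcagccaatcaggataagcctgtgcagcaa
It held 15 CpG, the same number as the Inpp5f window, with a ratio of 0.609.

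On X, 6 of 10 listed genes that escape X inactivation held a wt-specific peak, as did 13 of 25 listed broadly expressed genes subject to it, against 26.6% of all X protein-coding genes. The Wilson intervals of the 2 lists overlap, as the plot of families and lists shows, and their difference was not tested. Of the escape genes, Ddx3x, an RNA helicase gene, had 1 peak of 744 bp and score 65 at its promoter, Eif2s3x, a translation initiation factor gene, 1 of score 72, Kdm6a and Kdm5c, histone demethylase genes, 1 each of scores 54 and 40, and Shroom4 1 of score 40. These 5 promoter peaks all met Rad21, and the one at Eif2s3x also met CTCF. Mid1, a ubiquitin ligase gene whose end lies in the pseudoautosomal region that X and Y share, held 7 peaks of scores from 78 to 2404, of which 6 were repeated. The listed genes subject to inactivation with a promoter peak were Usp9x, Cask, Ube2a, Stag2, Phf6, Fmr1, G6pdx, Pdha1 and Rbbp7, with scores from 13 at Pdha1 to 79 at Stag2, and those with a peak in the body alone were Lamp2, Smarca1, Hprt and Ogt. Promoter peaks at all of the former but G6pdx and Pdha1 also met Rad21. In the X inactivation centre, Rlim, a ubiquitin ligase gene, had 1 promoter peak of score 54 and Chic1 1 intron peak of score 59 that met CTCF and Rad21, whereas Xist, Tsix, Jpx, Ftx and Cdx4 had 0.

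The Dxz4 locus, 4933407K13Rik, held 7 peaks of scores from 28 to 64, all of them repeated by the definition above, of which 6 met Rad21 and 4 met CTCF. Firre, another tandem repeat locus, held 1 peak of score 32 that met both. The X gene Bcor, a corepressor gene named after its values were seen, held 16 single-copy peaks of scores from 13 to 228 over its promoters, introns and an exon.

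Gene families differed widely in the share of members with a wt-specific peak. Hox genes had peaks in 11 of 39 (28.2%), 31 distinct peaks in all, of which the HoxC genes Hoxc4, Hoxc5, Hoxc6, Hoxc8, Hoxc9, Hoxc10, Hoxc11 and Hoxc13 accounted for 8 genes and Hoxb4, Hoxb8 and Hoxd9 for 1 peak each. Zfp genes, which encode zinc finger proteins, had peaks in 60 of 397 (15.1%), and 49 of the 397 had a single-copy peak. By chromosome they were 15 of 30 on chromosome 4, 9 of 18 on chromosome 5, 7 of 9 on X and 1 of 36 on chromosome 13. The share over all protein-coding genes was 26.6% on X and was not computed for chromosomes 4, 5 and 13. Since peaks were densest on chromosome 5 and X, the part of chromosome in the family share was not tested. Sp100, Sp110 and Sp140 all had peaks, 45 in total, and 3 of 10 Speer genes (Speer4c, Speer4d and Speer4e) did. Of 92 ribosomal protein genes 7 had a peak (7.61%), near the background of 7.42%, namely Rps19, Rps20, Rpl5, Rpl9, Rpl23a, Rpl36al and Rpl37, and each peak was at a promoter. Of the 22 Ugt genes the 7 with a peak (Ugt1a5, Ugt1a6a, Ugt1a6b, Ugt1a7c, Ugt1a8, Ugt1a9 and Ugt1a10) share 1 peak. Mup6 and Mup7, Cyp51 and Cyp3a41b, and Hist1h2bm and Hist1h1d were the members with a peak among 22 Mup, 100 Cyp and 66 histone genes. Several large gene families were nearly free of peaks in their members, with 3 of 1135 olfactory receptor genes (Olfr213, Olfr707 and Olfr94), 2 of 122 Vmn2r genes (Vmn2r20 and Vmn2r24), 0 of 209 Vmn1r, 0 of 64 defensin, 0 of 57 keratin-associated and 0 of 57 clustered protocadherin genes. Skint, Nlrp and Gbp genes had 0 as well, of 11, 17 and 10 members. These counts cover peaks of 1 merged list in the gene body or within 1 kb upstream. A count of 0 therefore does not show an absence of SmcHD1 from a locus, that of the clustered protocadherins included.

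Among X families, peaks were held by 5 of 8 Magea genes (Magea2, Magea3, Magea5, Magea6 and Magea8, 15 peaks), 11 of 34 Rhox genes (Rhox2d, Rhox2g, Rhox3c, Rhox3e, Rhox3f, Rhox3g, Rhox3h, Rhox4c, Rhox4e, Rhox4g and Rhox7b, 16 peaks), 4 of 10 Cldn34 genes (Cldn34c1, Cldn34c2, Cldn34c3 and Cldn34d), 4 of 10 Xlr genes (Xlr3b, Xlr4c, Xlr5a and Xlr5c), 4 of 10 Ssx genes (Ssxb2, Ssxb3, Ssxb6 and Ssxb10) and 3 of 6 Spin2 genes (Spin2c, Spin2d and Spin2f). The share over all X protein-coding genes was 26.6%, near the 32.4% of Rhox genes and above the 10.0% of Btbd35f genes. Magea, Rhox, Xlr and Ssx genes are known from germ cells or placenta. Luzp4, Ott and Srsx each held peaks, and 3 of 30 Btbd35f genes (Btbd35f9, Btbd35f21 and Btbd35f27) did, although 34 peaks lay beside Btbd35f17 and Btbd35f4 and 24 each beside Btbd35f27 and Btbd35f6. H2al1a and Tceal3 were the members with a peak among 18 H2al and 7 Tceal genes, as was Pramel3 among 13 Prame genes of all chromosomes, and Mageb, Slx, Bex, Nxf and Samt genes had 0 of 7, 2, 5, 3 and 4. The share of members with a single-copy peak was lower, with 4 of 34 for Rhox, 1 of 10 for Cldn34, 3 of 8 for Magea and 0 of 30 for Btbd35f, against the 21.3% of all X protein-coding genes given above. No member of these X families held a mut peak, but the mut list had only 1 peak on X, and 0.105% of all X protein-coding genes held one.

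**Figure D5:**
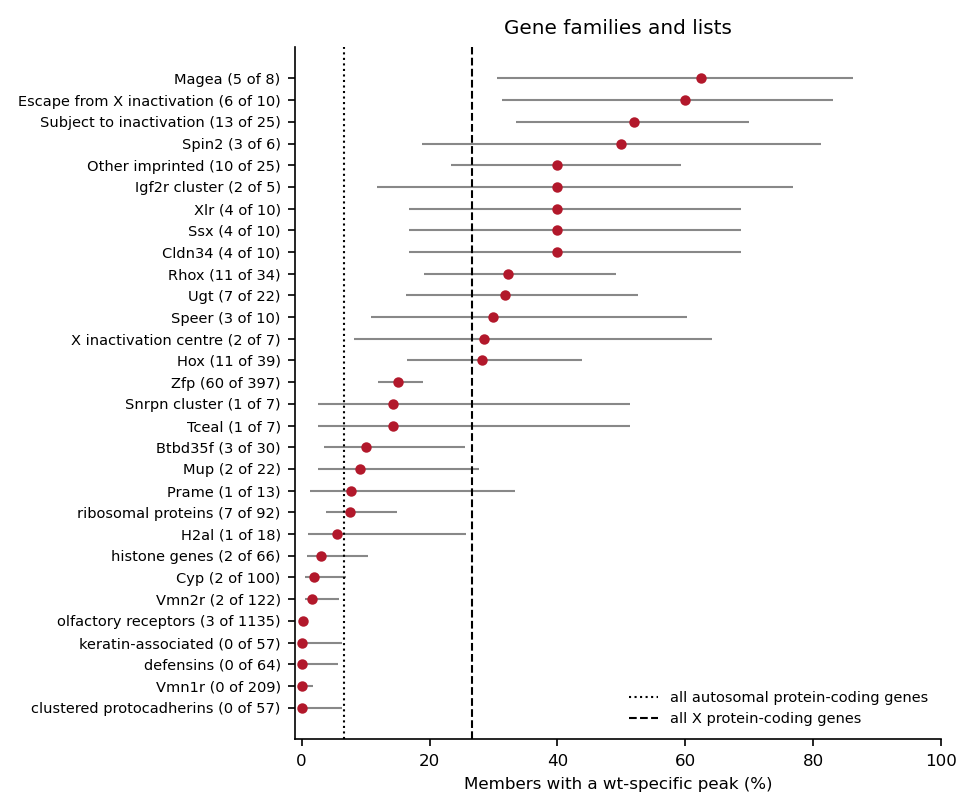
Share (%) of the members of each gene family or list that hold a wt-specific SmcHD1 peak in the body or within 1 kb upstream, with 95% Wilson intervals; members with a peak and all members are given in parentheses. Dotted and dashed lines mark all autosomal (6.60%) and all X (26.6%) protein-coding genes, and olfactory receptors (3 of 1135) lie far below the former.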

How the data were processed

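SmcHD1, CTCF and Rad21 ChIP-seq was analysed from 6 deposited lists, 1 per antibody and genotype (3 merged libraries each for SmcHD1 and CTCF, 2 for Rad21). Per the labels and the methods of the study, the authors aligned reads with Bowtie2 to an mm10 genome masked at strain variants and called narrow peaks with MACS2 at a q-value threshold of 0.05 on reads of both alleles. Versions, the use of inputs and the handling of reads with several matches are not given in the sources used here. The deposited score (lowest value 13) was used as a rank, and as a minimum in 1 alternative.

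From the lists, overlaps (1 bp), classes (GENCODE M21), clusters and repeated 50-base words were computed with Python 3.11.15, numpy 2.4.6 and pandas 2.3.3, and checked on simulated lists. Sequences and promoters came from RefSeq GRCm38.p6. Genes named were those nearest the 20 peaks of highest score, inside the 10 clusters with most peaks, the 15 with most peaks, and list members with a peak (by count where over 20). The members and lists were chosen with earlier results of these data known. Alternatives tried were other overlap rules, score of at least 50, other promoter and cluster distances, protein-coding genes only, and omission of repeated peaks, chromosome 5 or the start of chromosome 9, the last 2, and all those for Rad21 shares and class medians of score, chosen after seeing the data. The 2 lists of CRISPR knockout cells were not used here. Some items that the rules select are not reported here.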

Additional observations from a re-analysis of the deposited data

Results flagged for a closer look

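The MEFs were female, yet 45 wt-specific SmcHD1 peaks were listed on chromosome Y, against 2 mut peaks there. Of these 45, 32 were repeated and 21 lay in the last Mb, in a cluster at Gm47283 near or in the pseudoautosomal region, sequence that X carries too. Both mut peaks of Y lay in the same cluster. Their median score was 90, and 16 met a CTCF wt peak. The origin of these peaks was not tested.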

How the results depend on the processing

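The number of wt-specific peaks stayed within 1.5 times of 6830 with 50% reciprocal overlap (6887) and at 1 kb or more from any mut peak (6781), and fell to 2866 with scores of at least 50. The promoter share (24.1%) became 33.4% within 2.5 kb, 18.3% with protein-coding genes only, 25.2% at scores of at least 50, 25.7% with any part of the peak, 33.3% without repeated peaks and 25.6% without chromosome 5. The intergenic share (48.3%) became 59.9% with protein-coding genes only, 36.4% without repeated peaks and 50.6% without chromosome 5. The clustered share (52.0%) became 43.6% and 67.8% at gaps of 5 and 50 kb, 43.3% at scores of at least 50, 36.0% without repeated peaks and 50.3% without chromosome 5. The Rad21 share of autosomal promoter peaks (60.5%) became 55.0% at scores of at least 50 and 70.3% without repeated peaks, and that of X intergenic peaks (4.91%) 15.1% without repeated peaks. Leaving out the start of chromosome 9 moved no share beyond its interval, and the class medians of score stayed within their interquartile ranges without repeated peaks or chromosome 5. No paired analysis was possible because each genotype has 1 merged list, and the result comes from no test. Depth is unknown, so that a missing peak in mut does not show an absence of binding, and the list length depends on depth.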

Other observations

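The letters TCGCGAGA (both strands) were picked after all 8-letter words had been compared between single-copy wt-specific promoter peaks and Rad21 wt promoter peaks. Because the word was chosen on these same wt-specific peaks, its contrasts with Rad21, CTCF and RefSeq promoters are descriptions alone. They occurred in the central 300 bases of 2.03% of autosomal wt-specific promoter peaks (95% Wilson interval 1.41 to 2.92, 28 of 1377). The share was 0.995% in RefSeq promoters of the same length, 0.329% in Rad21 wt promoter peaks and 0.333% in CTCF wt promoter peaks. It was 4.90% in mut promoter peaks (2.11 to 11.0, 5 of 102), 2.94% in shared wt promoter peaks (2 of 68) and 1.11% in wt-specific promoter peaks on X (3 of 270). All 28 were in single-copy peaks, with the highest scores at Uhrf2 (163), a ubiquitin ligase gene related to the methylation cofactor Uhrf1, and at Mms22l (112), a DNA repair gene.

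The letters AANATGGCG (both strands), which are close to the YY1 binding motif and were noticed in the Peg3 and Dxz4 windows, occurred in 3.49% of autosomal wt-specific promoter windows (2.64 to 4.59). The share was 2.38% in RefSeq promoters, and 17.6% in promoter peaks of mut (11.5 to 26.2, 18 of 102) and 19.1% in shared wt promoter peaks (11.5 to 30.01, 13 of 68), the mut and shared sets being of all chromosomes.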
